A study of Mus musculus with 44 samples.

Results

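The livers of Surf1 knockout (KO) and wild-type (WT) mice were compared on Illumina mouse beadchips, with 8 KO and 8 WT liver arrays among the 44 arrays of the series. The members were all arrays whose titles name liver, a genotype and a number. All 16 livers came from female B6D2F1/J mice aged 8 to 12 months, the KO animals Surf1-/- and the WT animals Surf1+/+, with no other allele and no agent given in the labels. The other arrays held white adipose tissue (6 KO and 6 WT) and brain cortex (8 KO and 8 WT) of the same genotypes. The labels name no tissue-specific driver of the knockout, and give neither how the allele was made nor any pooling of animals. Each array is called here by its genotype and title number (KO_231). That number was read as an animal's, which no label states, and p-values measure the spread between these arrays. Whole liver was used, in which fewer cells of a type and less RNA per cell cannot be told apart.

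The product of Surf1 helps to assemble cytochrome c oxidase, the terminal enzyme of the mitochondrial respiratory chain, which passes electrons from cytochrome c to oxygen. It sits in the inner mitochondrial membrane and acts early in assembly, when the catalytic core of the enzyme is built. Loss of SURF1 in humans is a known cause of Leigh syndrome, a disease of the nervous system. Hepatocytes, the main cell type of the liver, are rich in mitochondria and make most plasma proteins.

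The title numbers fell into ranges that held as many WT as KO livers. In each genotype 6 numbers were under 300 and 2 over 500. The arrays over 500 were dimmer. Under 300, the median signal of an array (intensity, before background correction) ran from 167.4 through a median of 183.8 to 201.5 in WT and from 134.7 through 141.9 to 170.2 in KO. Over 500 it was 94.5 on WT_581, 64.5 on WT_679, 94.6 on KO_597 and 93.8 on KO_598. The share of the 25697 probes detected above background (detection p under 0.05) was 43.1% to 46.2% in WT and 44.1% to 46.7% in KO under 300, and over 500 it was 38.9% and 31.3% in WT and 40.8% and 40.2% in KO. The first principal component of the 16 arrays, with 44.45% of the variance, placed all 12 arrays under 300 between -33.7 and -6.9 and the 4 over 500 between 36.1 and 65.6. Correlations between liver arrays ran from 0.892 to 0.992, against at most 0.800 between a liver and a fat array and 0.654 between a liver and a brain array. The former used probes detected on enough liver arrays, the latter only those detected on enough arrays of every tissue, each tissue normalized apart.

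**Figure D1:**
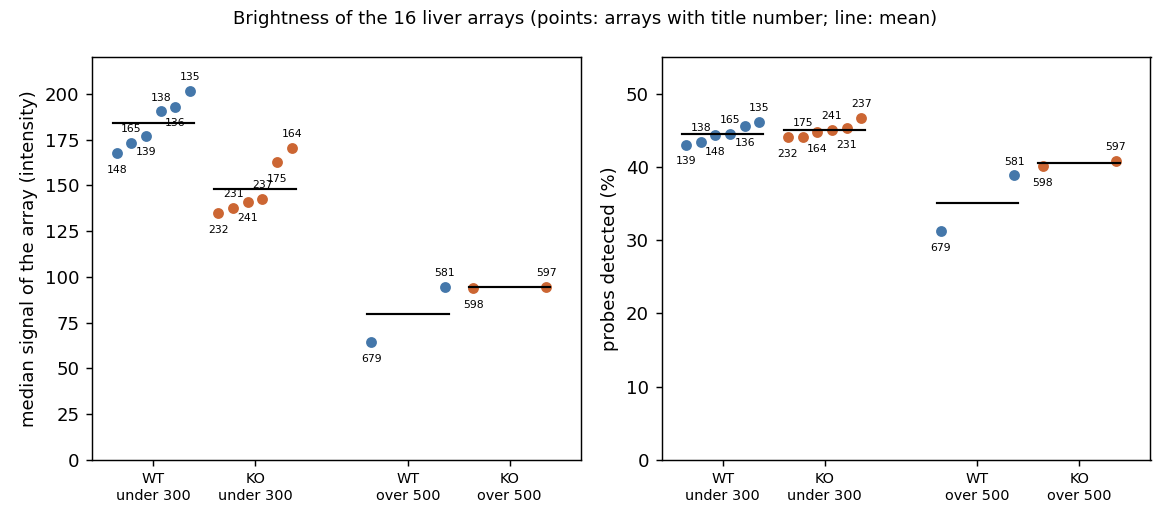
Median signal (left, intensity) and percent of probes detected (right) on each of the 16 liver arrays, by genotype and number range, with points for arrays, their title numbers beside them and lines for means. The 4 arrays KO_231, KO_232, KO_237 and KO_241 lie between 134.7 and 142.7 in median signal, below all 6 WT arrays under 300, and the 4 arrays over 500 lie at 94.6 or lower.

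Under 300 the KO arrays were dimmer than the WT arrays, and over 500 they were not. Under 300 the median signal was 148.2 ± 14.7 (SD, n = 6) in KO and 183.8 ± 13.2 (SD, n = 6) in WT, a difference of -35.6 (exact permutation p = 0.00433, two-sided, 924 arrangements). Over 500 the difference was 14.7, where 2 arrays against 2 cannot give an exact p below 0.333. Over both ranges together the median signal was 134.7 ± 27.9 (SD, n = 8) in KO and 157.7 ± 50.2 (SD, n = 8) in WT, a difference of -23.0 that an exact permutation of genotype within range (two-sided, 5544 arrangements) gave p = 0.0231, or 0.0462 after Benjamini-Hochberg adjustment over both array measures. The share of probes detected was 43.9% ± 2.26 (SD, n = 8) for KO and 42.2% ± 4.93 (SD, n = 8) for WT livers, a difference of 1.71 percentage points with an exact permutation p of 0.113, and it was 0.48 points under 300 and 5.41 over 500. KO_231, KO_232, KO_237 and KO_241 had median signals of 134.7 to 142.7, while KO_164 and KO_175 had 170.2 and 162.9. WT livers under 300 ran from WT_135 to WT_165, so that no WT liver carried a number like those of KO_231 to KO_241, and there the number block and the genotype cannot be told apart. What part the dimmer arrays had in the probe differences was not tested.

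The identifiers in the deposited table disagreed with the tissue in the labels. Of 16 probes listed for 12 hepatocyte genes, 2 (12.5%) were detected on at least 8 of the 16 liver arrays, against 43.3% of all probes. Albumin, the main protein that hepatocytes secrete into plasma, shows the mismatch: its listed probe (Alb) was above background on 1 of the 16 arrays, with signals of 150.0 to 197.4 in WT and 123.8 to 155.6 in KO under 300, near the median of the arrays. All 3 probes listed for adipocyte genes passed the same filter, among them the probe listed for Adipoq, an adipocyte hormone, which was detected on all 16. The filter was passed by 3 of 5 probes listed for Kupffer cell genes, 2 of 4 for endothelial, 2 of 3 for blood, 0 of 4 for stellate cell, 0 of 2 for cholangiocyte and 0 of 3 for neuron genes. The knockout could not be checked on its own gene. The probe ILMN_2657141 listed for Surf1 was detected on 0 of the 16 arrays and gave a KO minus WT log2 difference of 0.03 (SE 0.08), and the probe ILMN_2883561, also listed for Surf1, was detected on 1 of 16, with a difference of 0.00 (SE 0.09). Results are therefore given by probe identifier alone. No gene name, role or pathway was read for any probe, and sequences are not printed because they would be looked up by the same identifiers.

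KO and WT livers differed at 24 probes. Signals were background corrected, quantile normalized over the 16 arrays and put on a log2 scale, and 11117 probes detected on at least 8 arrays were each tested with limma, with number range as a covariate (two-sided, Benjamini-Hochberg adjusted p under 0.05). Of these, 24 (0.216%) passed, 15 higher in KO (0.135%) and 9 lower (0.081%). The differences of the 15 ran from 0.51 to 1.12 with a median of 0.84 on the log2 scale, and those of the 9 from -0.34 to -1.37 with a median of -0.64. As folds, the 24 ranged from 1.27 to 2.58. Over all tested probes the median difference was 0.01 and the median absolute difference 0.11. At an unadjusted p under 0.05, 694 probes were higher and 521 lower in KO.

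ILMN_2701486 had the smallest p of all tested probes. Under 300 its normalized log2 signal ran from 7.39 through a median of 7.55 to 7.80 in WT and from 8.37 through 8.64 to 9.17 in KO. Over 500 it was 8.74 and 9.01 in WT and 9.35 and 9.39 in KO. KO arrays were higher than all WT arrays of their own range in both ranges, while the WT arrays over 500 lay within the span of the KO arrays under 300. The level was 8.89 ± 0.40 (SD, n = 8) in KO and 7.91 ± 0.61 (SD, n = 8) in WT, and KO exceeded WT by 0.98 (SE 0.13, limma adjusted p = 0.00627). The difference was 1.14 under 300 and 0.50 over 500.

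ILMN_2613887 was the second probe higher in KO. Its log2 signal under 300 was 6.74 to 7.60 in WT (median 7.21) and 7.96 to 8.50 in KO (median 8.17). Over 500 the WT arrays gave 8.53 and 8.76 and the KO arrays 9.05 and 9.21. Genotypes did not overlap within either range, and the arrays over 500 were again the higher ones. KO was 8.44 ± 0.47 (SD, n = 8), WT 7.60 ± 0.71 (SD, n = 8), and the difference 0.84 (SE 0.13, limma adjusted p = 0.0176). On the authors' processed values it was 0.53, which also passed.

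ILMN_2661650, of the smallest p among the lower probes, was a bright probe. Its log2 signal was 13.52 to 14.04 (median 13.77) in WT and 12.72 to 13.44 (median 13.13) in KO under 300, and 14.03 and 14.08 in WT and 13.39 and 13.46 in KO over 500. Every KO liver lay below every WT liver over both ranges together. The difference was -0.64 (SE 0.10, limma adjusted p = 0.0176), with KO at 13.18 ± 0.28 (SD, n = 8) and WT at 13.82 ± 0.21 (SD, n = 8), and it was -0.64 under 300 and -0.63 over 500.

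ILMN_2634216 was the second lower probe. Under 300 its log2 signal was 12.52 to 13.45 in WT (median 12.94) and 11.49 to 12.51 in KO (median 12.19), so that the highest KO array stood just below the lowest WT array. Over 500 both WT arrays gave 11.91 and the KO arrays 11.20 and 11.27. The levels were 11.85 ± 0.51 (SD, n = 8) in KO and 12.70 ± 0.58 (SD, n = 8) in WT, a difference of -0.85 (SE 0.15, limma adjusted p = 0.0329). All 4 probes were detected on 16 of 16 arrays.

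**Figure D2:**
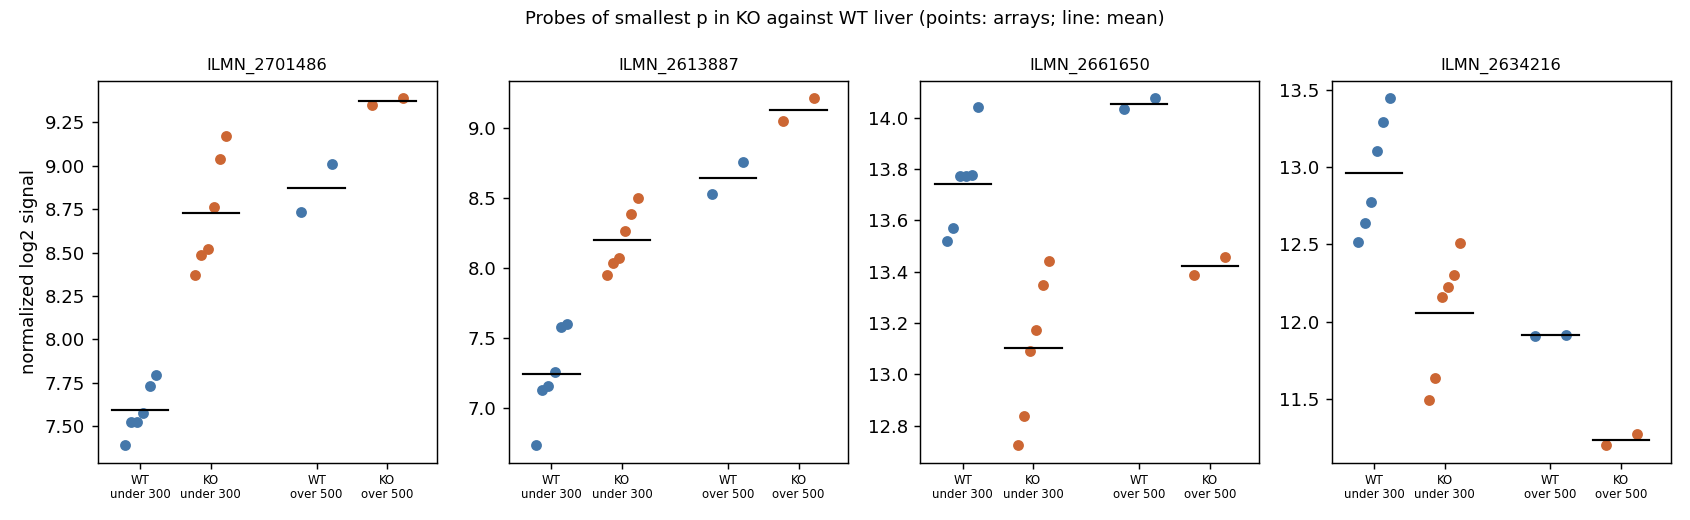
Normalized log2 signal of the 2 higher and 2 lower probes of smallest p on each liver array (points), by genotype and number range, with lines for means and a separate vertical axis for each probe. In each range the KO points lie on 1 side of the WT points, which choosing the probes by smallest p favours: ILMN_2701486 spans 7.39 to 7.80 in WT and 8.37 to 9.17 in KO under 300.

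The remaining called probes were spread over the whole range of brightness. The mean log2 level of the 24 ran from 5.54 to 13.75 with a median of 9.23, against 7.43 for all tested probes. Detection on all 16 arrays was seen for 16 of the 24 (66.7%), against 63.7% of tested probes, and the fewest arrays for any was 10. ILMN_2748897, detected on 10, had the largest difference of the 24 (-1.37). It was detected on all 6 WT and on 4 of 6 KO arrays under 300 and on none of the 4 over 500, so its difference rested on the arrays under 300, at 6.32 to 7.63 in WT and 4.65 to 6.42 in KO. Most probes with a large difference did not pass: 49 tested probes differed by 1 or more on the log2 scale (28 higher and 21 lower), and 3 of these were called.

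Few probes separated the genotypes array by array. At 19 of the 11117 tested probes (0.171%), 9 higher and 10 lower, all KO arrays lay beyond all WT arrays of the same range in both ranges. Of the 24 called probes, 7 were separated in this way, 3 higher and 4 lower, a count that choosing them by genotype on these arrays favours. The plot of all 24 shows single KO arrays within the WT spread for the rest, KO_237 among them for several higher probes and KO_164 for some lower ones.

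**Figure D3:**
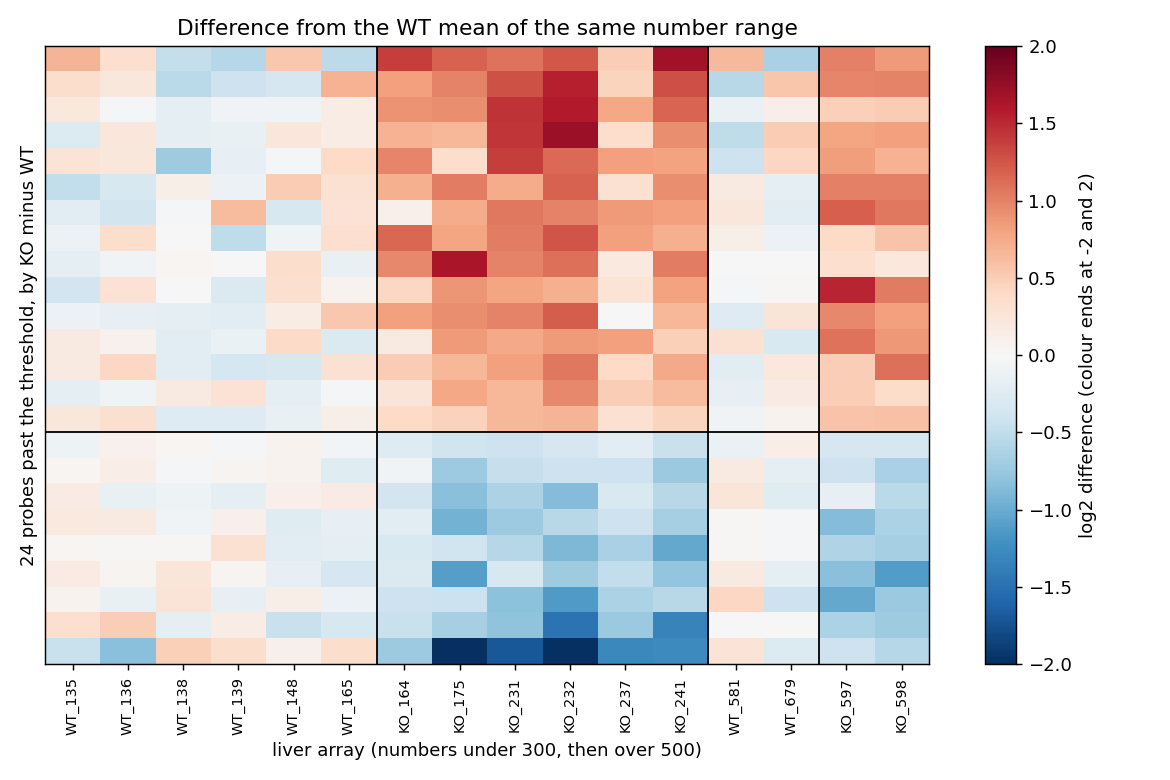
Log2 difference of each liver array (columns) from the WT mean of its own number range, for the 24 probes past the threshold (rows, by KO minus WT), with colour ends at -2 and 2 and lines between genotypes, ranges and directions. KO columns are red for the 15 higher probes, apart from 1 value of -0.01 on KO_237, and blue for the 9 lower ones in both ranges, and the WT columns hold both colours.

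The 24 calls rested on the range covariate. Because each range held equal numbers of the genotypes, the covariate left every difference as it was and lowered the median residual SD from 0.343 to 0.271. Without it, limma called 0 probes, with a smallest adjusted p of 0.118 and 672 probes at an unadjusted p under 0.05. The count also moved with single livers: it was 1 without WT_138, KO_231, KO_232 or KO_598, and 71 without KO_164, 54 without WT_679 and 47 without KO_237. It was 2 without WT_581, 3 without KO_241 or KO_597, 4 without WT_135 or KO_175, 5 without WT_139 and 7 without WT_148, and stayed at 23 and 22 without WT_136 and WT_165. ILMN_2701486 passed in all 16 of these fits, ILMN_2613887 in 12, ILMN_2661650 in 11 and ILMN_2634216 in 6, and the median over the 24 probes was 5 fits. The probe ranked next after the 24 had a limma adjusted p of 0.0557.

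The calls were also lost when the 4 livers from KO_231 to KO_241 were left out. In a limma fit without them, added after seeing the data, 0 probes passed and the smallest adjusted p was 0.248, while all 24 kept their sign. That fit also had fewer KO livers, and no other set of 4 was left out for comparison. It therefore cannot show that the calls rested on these livers in particular. The difference in that fit was 0.75 for ILMN_2701486, 0.78 for ILMN_2613887, -0.46 for ILMN_2661650 and -0.61 for ILMN_2634216. Set against the WT livers under 300, the size of the 24 differences was 0.35 to 1.68 (median 0.78) in KO_231 to KO_241 and 0.32 to 1.61 (median 0.63) in KO_164 and KO_175, and it was larger in the former for 16 probes. KO_164 and KO_175 both lay beyond all WT livers under 300 at 16 of the 24 probes, and the 4 others all did so at 15. With the log2 median signal of each array as a further covariate, limma called 2 probes, 1 of them among the 24: ILMN_2701486, at 0.83 with an adjusted p of 0.0208. At an unadjusted p under 0.05, 1579 probes passed in that fit, against 1215 without this covariate. The median signal was tied to the range and, under 300, to genotype. The lower count of calls therefore cannot show what part brightness had.

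The number range itself was the larger axis of variation in liver, which was known from these data when it was made the covariate. The values here describe that axis and do not test it. In the same limma fit, 5595 of 11117 probes (50.3%) differed between arrays over 500 and under 300 at equal genotype, 2283 higher and 3312 lower over 500. The median absolute difference was 0.38. ILMN_1218747 was 2.99 higher over 500 (SE 0.21, limma adjusted p = 6.02e-08), at 8.05 and 8.22 in WT and 7.98 and 8.70 in KO, against 4.84 to 5.65 and 4.78 to 6.23 under 300, where it was detected on 1 of 6 WT and 3 of 6 KO arrays. The size of that difference depends on how signals near background are handled: it was 1.53 when no background was corrected and 1.37 from the authors' own log2 values, and passed with both. ILMN_2707865 was 1.02 higher (SE 0.09, limma adjusted p = 2.31e-07). ILMN_2664819 differed by -1.91 (SE 0.13, limma adjusted p = 6.02e-08), and ILMN_2760540 differed by -1.46 (SE 0.10, limma adjusted p = 6.02e-08). None of these 4 overlapped between ranges within a genotype, which choosing them by smallest p on this difference favours. The share of all tested probes without overlap was not counted. What the numbers stand for is not given in the labels.

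Of the 24 probes that differed by genotype, 13 (54.2%) also differed between ranges, close to the 50.3% of all tested probes. The range difference ran in the KO direction for 9 of the 13 and against it for 4. That share was not counted over all tested probes, so nothing is read from it. ILMN_2701486 was among the 9, with values over 500 that were higher by 0.96 (SE 0.15) at equal genotype, and ILMN_2613887 too, by 1.17 (SE 0.15).

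The direction of the KO difference was the same in both ranges at all 24 called probes, a count that the choice of the probes on both ranges together favours. Under 300 the size in that direction was 0.34 to 1.66 (median 0.73) and over 500 it was 0.27 to 1.28 (median 0.76). The test of whether the KO difference itself differed between ranges, a genotype by range term in limma, passed for 0 of the 24 after adjustment and for 1, ILMN_2701486, at an unadjusted p of 0.0318. Over all tested probes 10.4% had such an unadjusted p and 0.018% passed, so the counts among the 24 say little about them. Its difference over 500 was smaller than that under 300 by 0.64 (over minus under -0.64, SE 0.27).

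**Figure D4:**
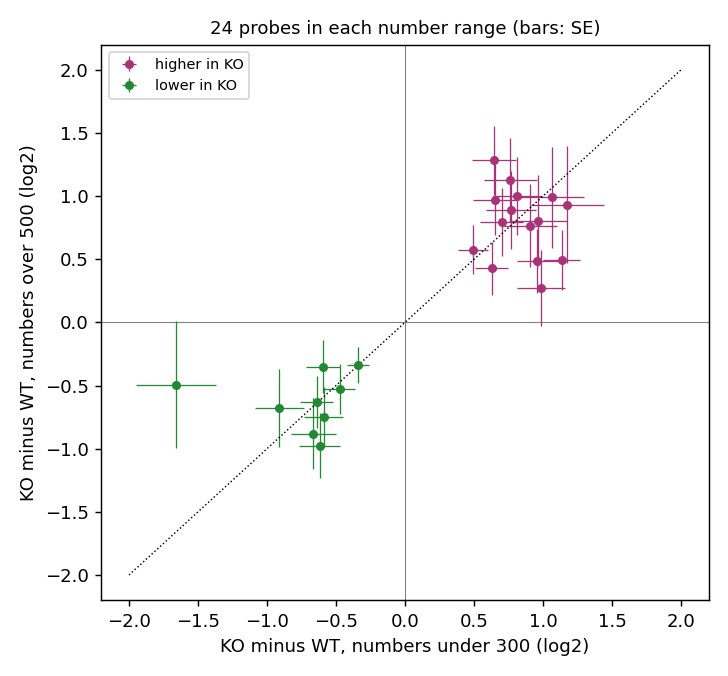
KO minus WT log2 difference over 500 (vertical) against that under 300 (horizontal) for the 24 probes past the threshold, with bars for SE and a dotted line of equality. All 24 lie in the upper right or lower left quadrant, at sizes of 0.34 to 1.66 under 300 and 0.27 to 1.28 over 500.

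A comparison of ranges that share no array was made by choosing probes in 1 range and reading them in the other. The 100 probes of smallest p under 300 had the same direction over 500 in 71 cases (71.0%, exact 95% binomial interval 61.1 to 79.6, for counting error only), against 53.4% of all 11117 probes. Their median size fell from 0.69 in the range of choice to 0.23 in the other. The 100 of smallest p over 500 had the same direction under 300 in 75 cases (75.0%, 65.3 to 83.1), against 53.5% of all probes, and the median size went from 1.09 to 0.25. Probes are not independent of each other, so these shares carry no test. Fitted apart, 6 probes were called under 300 and 6 over 500, with 0 in common. Of the former 2, and of the latter 5, had the same direction in the other range.

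At 2 of the 11117 probes (0.018%) the KO difference differed between ranges by that term. ILMN_2715289 was 7.52 to 7.85 in WT and 7.51 to 7.98 in KO under 300, where it was detected on all 12 arrays and the genotypes overlapped. Over 500 it was not well above background on either WT array and was 6.98 and 6.81 in the KO arrays. On these normalized values KO was at least 1.90-fold higher there. Signals before correction were 127.9 and 115.2 in KO against 96.6 and 63.9 in WT. The fitted difference over 500, which includes the WT signals at background, exceeded that under 300 by 1.66 (SE 0.22, limma adjusted p = 0.00826). It was 0.65 without background correction (limma adjusted p = 0.125), 0.56 on the authors' processed values (limma adjusted p = 0.140) and 0.61 with cyclic loess (limma adjusted p = 0.9997), so the call was lost with each of these. A bound of this kind sets the mean of the detected genotype against the higher, per array of the other, of the lowest signal among detected probes and the probe's own signal. It holds for the main normalization only and is no minimum under other processing.

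ILMN_2725531 went the other way. Over 500 its WT arrays gave 6.15 and 6.78, themselves close to background (detection p 0.00752 and 0.0276). It was not well above background on either KO array, which on these normalized values made KO at least 1.95-fold lower. Signals before correction were 106.3 and 79.5 in WT against 90.6 and 92.9 in KO, so that bound is tied to the processing. Under 300 ILMN_2725531 was detected on 1 of 6 WT and 6 of 6 KO arrays, at 4.81 to 5.68 and 5.41 to 6.17. The difference there was 0.63 (SE 0.17), with groups that overlapped. The fitted difference between ranges was -2.15 (SE 0.34, limma adjusted p = 0.0310), and it also passed at -0.68 from the authors' own log2 values and at -0.79 when no background was corrected. With cyclic loess it was -1.32 and did not pass (limma adjusted p = 0.998). With 1 liver left out it passed in 8 of 16 fits, against 15 of 16 for ILMN_2715289. The count of such probes moved with the 4 arrays over 500: without WT_581 it was 775 without KO_597 it was 55, without WT_679 it was 3 and without KO_598 it was 0, each leaving 1 array for that genotype over 500, assumed to vary like the other groups.

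The called probes of liver were then read in white adipose tissue and brain cortex. Of the 24, 18 (75.0%) were detected on enough fat arrays to be tested there, against 90.4% of all liver probes tested, and 14 (58.3%) on enough brain arrays, against 84.1%. In fat, limma called 0 of the 18, with a smallest adjusted p of 0.0765, where it called 5 of 12468 probes in all (0.0401%). At an unadjusted p under 0.05 there were 4 of the 18, 3 in the liver direction, against 14.6% of all fat probes. In brain it called 0 of the 14, with a smallest adjusted p of 0.996, where it called 1 of 12648 in all (0.00791%). At an unadjusted p under 0.05 there were 2 of the 14, 1 in the liver direction, against 4.48% of all brain probes. With so few calls in either tissue, the counts of 0 do not set the 24 apart. ILMN_2701486 was detected on 3 of 12 fat and 0 of 16 brain arrays. ILMN_2613887 differed by 0.08 in fat and 0.16 in brain. ILMN_2661650 differed by 0.15 in fat, at 11.01 to 12.59 in WT and 11.82 to 12.44 in KO, and by -0.32 in brain. ILMN_2634216 differed by 0.38 in fat and by -0.22 in brain, and neither value passed.

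**Figure D5:**
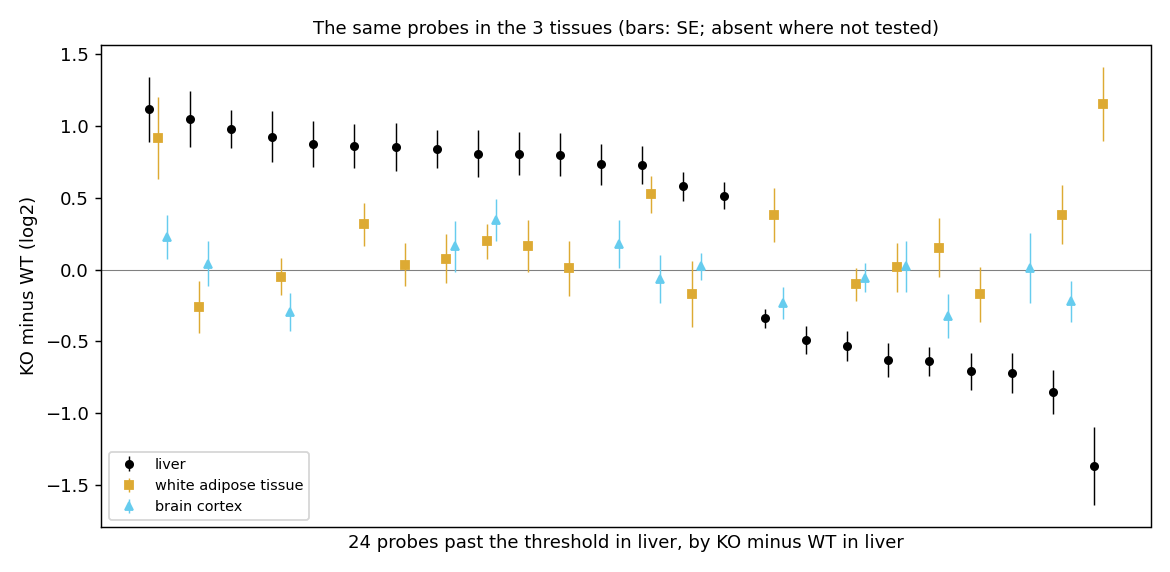
KO minus WT log2 difference of the 24 probes past the threshold in liver (black), white adipose tissue (yellow squares) and brain cortex (blue triangles), ordered by the liver value, with bars for SE and no symbol where a probe was not tested. The liver points run from 1.12 to -1.37, and the fat and brain points do not follow that order: the probe at -1.37 in liver lies at 1.15 in fat.

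Whether the KO difference was unlike that of fat was tested directly, as a contrast of the KO minus WT differences in 1 limma fit over the 44 arrays. That fit took 1 residual spread per probe from all tissues together. Where a probe varied more in fat than elsewhere, its SE can therefore be too small and its adjusted p too low. It passed at 188 of 10053 probes tested in both tissues (1.87%), 122 with the higher difference in liver and 66 with the lower. The count was 54 without the range covariate, 66 with the arrays under 300 alone, the only range that fat has, 67 without KO_231 to KO_241 and 419 on the authors' processed values. The fat difference was the larger in size at 151 of the 188, with a median of 0.74 against 0.26 in liver, where over all tested probes these medians were 0.14 and 0.11. The signs were opposite at 161, against 50.5% of all probes tested in both tissues, a count that choosing probes on the contrast favours. In liver alone, 8 of the 188 were called, of 18 among the 10053, and 87 had an unadjusted p under 0.05, against 10.4% of all. In fat alone, 3 were called, of 4 among the 10053, and 159 had an unadjusted p under 0.05, against 14.0% of all.

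The values of the probes of smallest p, which were chosen on the same contrast, describe it. ILMN_1240943 differed by 0.68 in liver, where WT ran from 5.30 to 7.52 and KO from 6.80 to 7.94. Its difference in fat was -2.54, where WT ran from 8.10 to 10.18 and KO from 5.58 to 8.40 (liver minus fat 3.22, SE 0.43, limma adjusted p = 1.37e-05). The genotypes overlapped in both tissues, and neither difference passed alone (limma adjusted p = 0.238 in liver and 0.0542 in fat). Its SD in fat was 1.09 in KO and 0.84 in WT. In brain, where ILMN_1240943 was detected on 0 arrays, the SD was 0.10 in KO and 0.05 in WT, and the pooled SE drew on these as well. ILMN_1243722 differed by 0.08 in liver, with WT at 9.44 to 9.97 and KO at 9.56 to 10.04, and by -1.10 in fat, with WT at 11.51 to 12.46 and KO at 10.57 to 11.36 (liver minus fat 1.18, SE 0.16, limma adjusted p = 1.37e-05). Its genotypes overlapped in liver and did not in fat.

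Lower in liver than in fat was ILMN_2748897, which was called in liver as well (-1.37, limma adjusted p = 0.0406). It was 1.15 higher in KO fat, which did not pass alone (limma adjusted p = 0.0765), and liver minus fat was -2.52 (SE 0.36, limma adjusted p = 2.27e-05). ILMN_2699477 differed by -0.28 in liver, at 10.13 to 10.75 in WT and 9.92 to 10.62 in KO, and by 2.43 in fat, at 4.64 to 8.09 in WT, with 3 of 6 arrays detected, and 7.33 to 9.76 in KO (liver minus fat -2.72, SE 0.47, limma adjusted p = 0.00106). Neither of its differences passed alone (limma adjusted p = 0.269 in liver and 0.0826 in fat). Its SD in fat was 0.89 in KO and 1.47 in WT, against 0.24 and 0.31 in brain. The 8 liver-called probes among the 188 had contrasts of 0.72 to 2.52 in size. All 4 named probes passed in every alternative in which they were tested, with contrasts of 2.09 to 3.42 for ILMN_1240943, 1.13 to 1.22 for ILMN_1243722, -2.81 to -1.31 for ILMN_2748897 and -2.88 to -1.52 for ILMN_2699477. Each of those fits also took its spread from all tissues together.

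Against brain, 1 of 9353 probes (0.0107%) passed the same contrast. ILMN_2853744 was 11.27 to 12.63 in KO liver and 10.44 to 11.47 in WT liver, a difference of 0.92, with no overlap within either number range, and it differed by -0.29 in brain, at 5.72 to 6.06 in KO and 5.89 to 6.75 in WT (liver minus brain 1.22, SE 0.21, limma adjusted p = 0.00403). It was also called in liver alone (limma adjusted p = 0.0334). Without KO_231 to KO_241 the contrast was 1.02 and did not pass (limma adjusted p = 0.0761), which left 0 probes, and the count was 53 with array weights. At an unadjusted p under 0.05, 618 probes passed. In the lower direction none passed, and the probes of smallest p were ILMN_2802103, at -0.84 with a limma adjusted p of 0.136, and ILMN_2700468, at -0.64 with a limma adjusted p of 0.205.

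The number of arrays limits the precision of these comparisons. The median SE of a KO minus WT difference in liver was 0.14 (5th to 95th percentile 0.083 to 0.228), and its 95% interval, before any adjustment over probes, reached a median of 0.28 to either side on the log2 scale. The threshold after adjustment was stricter: the largest unadjusted p among the 24 called probes was 9.97e-05.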

How the data were processed

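Total RNA was labelled as biotinylated cRNA and hybridised in 1 colour, per the labels' protocols. The authors deposited non-normalized intensity values of 25697 probes on 44 arrays, with no background subtraction (the lowest was 39.4). The detection score deposited beside each intensity is a fraction that is high for bright probes, and 1 minus this score was taken as the detection p. The authors' deposited log2 values, for which the submitters' processing notes name lumi, keep the order of the intensities on each liver array. Sorted, these values differed between liver arrays by at most 0.0166, as after quantile normalization. Whether that was done within liver or over all 44 arrays was not checked. The exact transform of the authors' values is unknown here, and they served as an alternative. No slide or scan date was used.

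Intensities were corrected by neqc (limma 3.58.1, R 4.3.3, statmod 1.5.0) from the detection p, with an offset of 16, and quantile normalized within tissue. Probes with a detection p under 0.05 on at least 8 liver, 6 fat or 8 brain arrays entered lmFit and eBayes (intensity trend). Each probe was its own test. The fits were tested on simulated data. The contrasts between tissues used no animal block, and an alternative had one. Of the 25697 probes 23978 had 1 symbol and 1719 none, and symbols served only the marker check and the alternative with 1 probe per symbol. By the rule for named probes, the 2 higher and 2 lower of smallest p past the threshold were named, or of smallest p where none passed. ILMN_2748897 was also described among the called probes for its largest difference, and it was chosen after its values were seen. The arrays compared, the covariate, the marker lists and the tests were chosen with earlier results of these data known.

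Livers of KO and WT share no title numbers, so no pairs exist between them. Across tissues, arrays with the same number were compared by their deviations from the group means: the median correlation was 0.11 for liver with fat (12 numbers, -0.17 to 0.40) and 0.09 for liver with brain (9 numbers, -0.05 to 0.42).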

Additional observations from a re-analysis of the deposited data

Results flagged for a closer look

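The difference between KO and WT liver differed between the number ranges at 2 probes, ILMN_2715289 and ILMN_2725531, by a genotype by range term in limma, and both have a group not well above background on the arrays over 500. The KO difference in liver differed from that in white adipose tissue at 188 probes and from that in brain cortex at 1 probe, ILMN_2853744, by limma's contrast between tissues.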

How the results depend on the processing

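Every named probe kept its sign in all alternatives, and calls changed as follows. For KO against WT liver, ILMN_2701486 passed in 28 of the 31 alternatives that tested it, and ILMN_2613887 in 24 of 32. ILMN_2661650 passed in 22 of 32 and ILMN_2634216 in 14 of 31. The 24 probes of KO against WT liver became 0 without the range covariate, 14 with no filter on dim probes, 11 with cyclic loess, 9 without the intensity trend, 226 with array weights (all 24 shared), 7 with 1 probe per deposited symbol, 6 under 300 only, 6 over 500 only, 182 in 1 fit of the 44 arrays (23 shared), 2 with the median signal as covariate and 0 without KO_231 to KO_241; leaving out 1 liver gave 1 to 71. The cause was not tested. The last alternatives, and robust moderation, were chosen after seeing the data. The 5595 probes of the range comparison became 8971 with no filter, 3395 with probes detected on every array and 130 with the median signal as covariate, and 4817 to 5590 with 1 liver left out. The median signal was lower on every array over 500, so with it as covariate the range was hard to tell apart. The 2 probes of the genotype by range term became 65 with no filter, 0 with probes detected on every array, 5 with an offset of 50, 0 with cyclic loess, 15 without the trend, 0 with array weights, 1 with 1 probe per symbol, 0 with the median signal as covariate, 1 without KO_231 to KO_241 and 0 to 775 with 1 liver left out. Liver minus fat went from 188 to 54 without the range covariate, 299 without background correction, 284 with an offset of 50, 419 on the authors' values, 358 with array weights, 66 under 300 only and 67 without KO_231 to KO_241, and lay between 0.734 and 1.30 times that count when 1 liver was left out. Liver minus brain went from 1 to 5 with no filter, 2 on the authors' values, 53 with array weights, 0 with 1 probe per symbol, 2 under 300 only and 0 without KO_231 to KO_241, with 1 to 6 when 1 liver was left out. With the title number as a replicate block (random, consensus correlation 0.053), 245 and 1 probes passed in these contrasts, and the block ended no call of a named probe. No paired analysis was possible within liver because KO and WT livers share no title number.

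The 71 and 75 probes of 100 that kept their direction across ranges became 58 to 75 and 68 to 80 when 1 liver was left out, 58 without WT_581. The difference in median signal was -23.0 with p = 0.276 when genotype was permuted over all 16 arrays (exact permutation), and -29.2 to -19.5 when 1 array was left out, with a p of 0.0523 without WT_135; that in the share detected was 0.69 to 2.07, with a p of 0.0400 without WT_135. Signals near background limit what can be read: 8 of the 24 probes were undetected on at least 1 array.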
